A study of Mus musculus with 6 samples.

Results

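Homeobox genes encode transcription factors that bind DNA through a homeodomain and set the identity of body segments, limbs, nerve cell types and organs during development. Many of them are kept silent in adult cells by the Polycomb group proteins, whose complex PRC2 trimethylates lysine 27 of histone H3 (H3K27me3), and in many cell types the Hox clusters and other CpG-rich homeobox genes are among the best known carriers of this mark. Mesangial cells are the contractile, pericyte-like cells between the capillaries of the kidney glomerulus, and several homeobox genes (Six2, Hoxa11, Hoxd11, Irx1) are known from the building of the embryonic kidney.

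The 122 homeobox genes described here are the autosomal protein-coding genes of the GENCODE M1 annotation (mouse assembly mm9) that belong by symbol to the 4 Hox clusters or to the Pax, Lhx, Nkx, Irx, Dlx, Pitx, Emx, Msx, Otx, Barx, Alx, Barhl, Vax, Tlx, Meis, Onecut, Gsx, En and Prrx families or to that of Six2. They comprise 39 Hox genes and 83 others, out of 21327 autosomal protein-coding genes. A few Pax factors bind DNA mainly through a paired domain and have only part of a homeodomain or none. H3K27me3 was mapped by ChIP-seq (sequencing of DNA recovered with an antibody to the mark) in primary mesangial cells of the mouse at passages 3 to 6, grown in high glucose (25.5 mM) with 20% foetal bovine serum. The Control group had 3 samples, and the other group had 3 samples given TGF-β1 (transforming growth factor β1, a cytokine that drives fibrosis), at a dose of 10 ng/ml over 72 h. The strain of the mice, the number of cell preparations and any vehicle given to the Control cells are not stated in the sources used here, so the spread between samples may be technical. A gene was counted as marked in a sample when a broad peak of that sample overlapped its body or the 2 kb upstream by at least 1 bp. Marked thus means a called peak, and the peaks were called without an input library. The protocol in the labels speaks of methylated DNA immunoprecipitation, whereas titles, antibody and study name H3K27me3.

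The depths were alike in both groups, with 19721434 to 22307716 tags per library after removal of duplicates, but the lists were not. Autosomal peaks numbered 1892 to 2582 per Control sample and 797 to 1513 per TGF-β1 sample, and the shortest list, that of TGF-β1 replicate 2, came from the deepest library. Peaks covered only 0.0164 to 0.0597% of the autosomes. The files hold no expression, and only 10.9% of all genes were marked in any sample, so peaks on marker genes could not check the cell type. Of 13 mesangial marker genes, Pdgfra was marked in all 3 Control samples and no TGF-β1 sample, Gata3 in 1 Control sample, and the other 11 in none. None of 5 endothelial markers was marked in any sample, against 4 of 6 podocyte markers and 1 of 7 tubule markers.

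The sequences that follow are stretches where peaks of different samples overlapped, on genes marked in all 3 Control samples and no TGF-β1 sample, on 2 genes marked in both groups, and between genes of the HoxA cluster. They are read on the plus strand of mm9 from 5′ to 3′, in lower case, with every CpG dinucleotide in capitals. For Tlx2, a neural crest and enteric neuron factor, the peaks of all 3 Control samples shared 133 bp upstream of the gene at chr6:83021052-83021184.
Tlx2: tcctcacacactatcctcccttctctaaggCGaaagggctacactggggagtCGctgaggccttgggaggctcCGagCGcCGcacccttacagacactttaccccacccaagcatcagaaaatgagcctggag
For Nkx2-4, a relative of the thyroid and forebrain factor Nkx2-1, the 3 Control peaks shared 215 bp of coding sequence and intron at chr2:146910102-146910316.
Nkx2-4: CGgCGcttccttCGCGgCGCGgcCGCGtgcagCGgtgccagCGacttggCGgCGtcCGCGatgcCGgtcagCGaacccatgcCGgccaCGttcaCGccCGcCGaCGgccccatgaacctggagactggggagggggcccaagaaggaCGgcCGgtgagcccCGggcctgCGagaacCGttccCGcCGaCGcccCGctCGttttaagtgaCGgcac
For Barhl1, a factor of inner ear hair cells and cerebellar neurons, Control replicates 2 and 3 shared 161 bp upstream of the gene at chr2:28773551-28773711, and the peak of Control replicate 1 lay next to it.
Barhl1: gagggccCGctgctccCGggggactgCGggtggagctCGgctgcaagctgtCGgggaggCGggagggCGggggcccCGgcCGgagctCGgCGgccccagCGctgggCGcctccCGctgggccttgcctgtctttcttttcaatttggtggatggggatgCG
For Dlx5, a factor of bone and the facial skeleton, Control replicate 1 and TGF-β1 replicate 1 shared 434 bp of intron, and the middle 300 bases, chr6:6831132-6831431, are shown because the peaks with the highest −log10 q on any homeobox gene lay there (q is the peak caller's p corrected for multiple tests).
Dlx5: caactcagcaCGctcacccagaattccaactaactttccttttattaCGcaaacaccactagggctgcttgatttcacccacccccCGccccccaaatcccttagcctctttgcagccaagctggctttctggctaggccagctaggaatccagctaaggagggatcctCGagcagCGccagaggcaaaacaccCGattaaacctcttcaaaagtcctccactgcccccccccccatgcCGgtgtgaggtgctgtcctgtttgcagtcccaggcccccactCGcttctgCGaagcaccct
For Hoxd1, at the 3′ end of its cluster, peaks of Control replicates 2 and 3 and TGF-β1 replicate 1 shared 43 bp of coding sequence at chr2:74601275-74601317.
Hoxd1: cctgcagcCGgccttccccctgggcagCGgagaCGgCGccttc
The most recurrent peak of the Hox clusters lay in no gene, between Hoxa11 and Hoxa13, where 5 of the 6 samples shared 171 bp at chr6:52203063-52203233.
HoxA intergenic: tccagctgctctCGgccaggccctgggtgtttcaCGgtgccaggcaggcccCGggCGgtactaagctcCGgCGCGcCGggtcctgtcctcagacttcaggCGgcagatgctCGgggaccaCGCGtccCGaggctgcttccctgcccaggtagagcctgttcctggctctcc
The stretches differed in base composition. The Nkx2-4 stretch held 33 CpGs at 73.0% GC, a CpG ratio (observed over expected from base composition) of 1.15. The Tlx2 stretch held 5 CpGs at 57.9% GC (ratio 0.462), and the Dlx5 stretch held 9 CpGs at 57% GC (ratio 0.416). The HoxA intergenic stretch lay between these, with 13 CpGs and a ratio of 0.630.

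The first question was how many of the homeobox genes had a called peak with and without TGF-β1. Of the homeobox genes, 20, 26 and 13 were marked in the Control samples, and 4, 3 and 2 with TGF-β1. The groups did not overlap, and the lowest Control sample had more marked genes than the TGF-β1 samples together. The mean was 19.7 ± 6.51 genes for Control and 3 ± 1 for TGF-β1 (SD, n = 3 each), a 6.56-fold difference that exceeded the replicate SD, with p = 0.1 in a 2-sided exact permutation test. That is the smallest p that 3 samples against 3 can give, so no comparison between the groups could pass 0.05, and over the 10 planned tests the Benjamini-Hochberg adjusted value for this exact test was 0.25. The difference was smaller at equal peak numbers. When each sample was cut to its 797 most significant autosomal peaks, the means were 5.67 and 2.67 genes (2.12-fold, exact p = 0.3), and with the 797 longest peaks they were 6 and 3 (2-fold, exact p = 0.3).

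The length under peaks followed the counts. In the windows of the homeobox genes, peaks covered 10384, 15493 and 7038 bp in the Control samples and 2190, 1548 and 1501 bp in the TGF-β1 samples. The lowest Control value was above the highest TGF-β1 value. The means were 10972 ± 4258 and 1746 ± 385 bp (SD, n = 3 each), 6.28-fold apart with an exact permutation p of 0.1. Cut to 797 peaks per sample, the difference was 2.58-fold with the most significant peaks and 3.07-fold with the longest, and both gave an exact p of 0.1. As a share of window length, the homeobox means were 0.466% for Control and 0.0742% for TGF-β1. For the other autosomal protein-coding genes they were 0.0743 and 0.0249%. That is 2.99-fold apart, also without overlap between the groups (exact permutation p = 0.1).

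Next, the homeobox genes were set against the other 21205 autosomal protein-coding genes. Of the homeobox genes, 16.4, 21.3 and 10.7% were marked in the Control samples and 3.28, 2.46 and 1.64% in the TGF-β1 samples. Of the other genes, 5.98, 5.89 and 4.49% were marked in the Control samples and 3.00, 1.49 and 2.61% in the TGF-β1 samples. Homeobox genes were thus marked 2.37 to 3.62 times as often as other genes in the Control samples and 0.629 to 1.64 times as often with TGF-β1. The mean of this ratio was 2.91 ± 0.639 for Control and 1.12 ± 0.509 for TGF-β1 (SD, n = 3 each, exact permutation p = 0.1). The other genes were also marked less often in every TGF-β1 sample, but with a 2.30-fold difference of the means. Both sets were counted in the same peak lists.

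**Figure D1:**
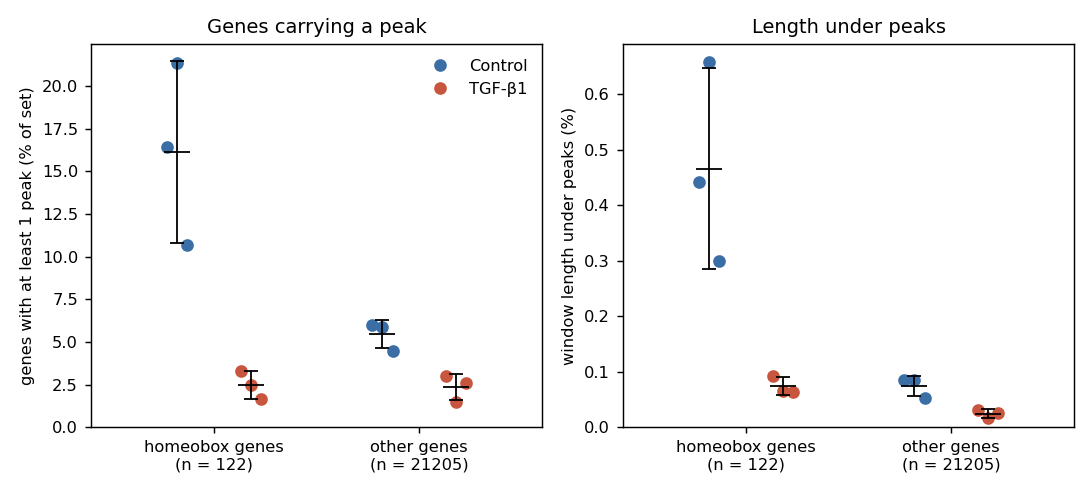
Left, percent of the 122 homeobox genes and of the 21205 other autosomal protein-coding genes with at least 1 peak. Right, percent of their window length (gene body plus 2 kb upstream) under peaks. Each point is 1 sample, and bars are the mean ± SD of 3 samples. Homeobox genes lay at 10.7 to 21.3% in the Control samples and at 1.64 to 3.28% in the TGF-β1 samples, where the other genes lay at 1.49 to 3.00%. On the right, the Control and TGF-β1 means were 0.466 and 0.0742% for homeobox genes and 0.0743 and 0.0249% for the others.

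The same difference can be read as the share of homeobox genes among all marked genes. It was 1.55, 2.04 and 1.35% in the Control samples and 0.624, 0.938 and 0.360% in the TGF-β1 samples, without overlap. The means were 1.64 ± 0.355 and 0.641 ± 0.289% (SD, n = 3 each, exact permutation p = 0.1). With 797 peaks per sample the means were 1.42 and 0.794% for the most significant peaks (exact p = 0.4) and 1.20 and 0.830% for the longest (exact p = 0.3). Limited to peaks with a −log10 q of at least 5, where at most 1 homeobox gene per sample was left, the order of the means turned, at 0.699% in the Control group and 0.794% with TGF-β1 (exact p = 1).

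The CpG content of the promoters was compared as well. Promoters were called CpG-rich when the 1 kb on either side of the 5′ end had at least 50% GC and a CpG ratio no lower than 0.6. This held for 65 of the 122 homeobox genes (53.3%) and for 30.4% of the other genes. It also held for 24 of the 39 homeobox genes marked in any sample (61.5%) and for 41 of the 83 that were never marked (49.4%), a difference that was not tested. The share was alike in the 31 genes marked in Control samples only (61.3%) and the 8 marked in a TGF-β1 sample (62.5%), and it held for 2 of the 4 genes marked in all Control and no TGF-β1 samples. Among genes with CpG-rich promoters alone, 16.9, 27.7 and 12.3% of the homeobox genes and 7.86, 7.94 and 6.25% of the others were marked in the Control samples. With TGF-β1 these values were 3.08, 4.62 and 1.54% for the homeobox genes and 3.57, 1.85 and 2.92% for the others. As a share of marked CpG-rich genes, an alternative chosen after seeing the data, the homeobox genes made up 2.49% in the Control group and 1.28% with TGF-β1 (exact permutation p = 0.3). The median window was 8.14 kb for the homeobox genes and 17.6 kb for the other genes, and the part of window length in these shares was not tested.

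Gene by gene, 39 of the 122 homeobox genes (32.0%) were marked in at least 1 of the 6 samples, against 10.9% of all genes. Of these, 31 (25.4%) were marked in Control samples only, against 5.88% of all genes, and 1 gene (0.820%) was marked in TGF-β1 samples only, against 1.39%. The remaining 7 were marked in both groups. The stricter pattern of a peak in all 3 Control samples and no TGF-β1 sample was met by 4 homeobox genes (3.28%) and by 0.666% of all genes. The opposite pattern was met by 0 homeobox genes and by 0.00938% of all genes. These are counts of calls with no test, and with 3 samples a group no gene alone could reach 0.05 in an exact permutation test.

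**Figure D2:**
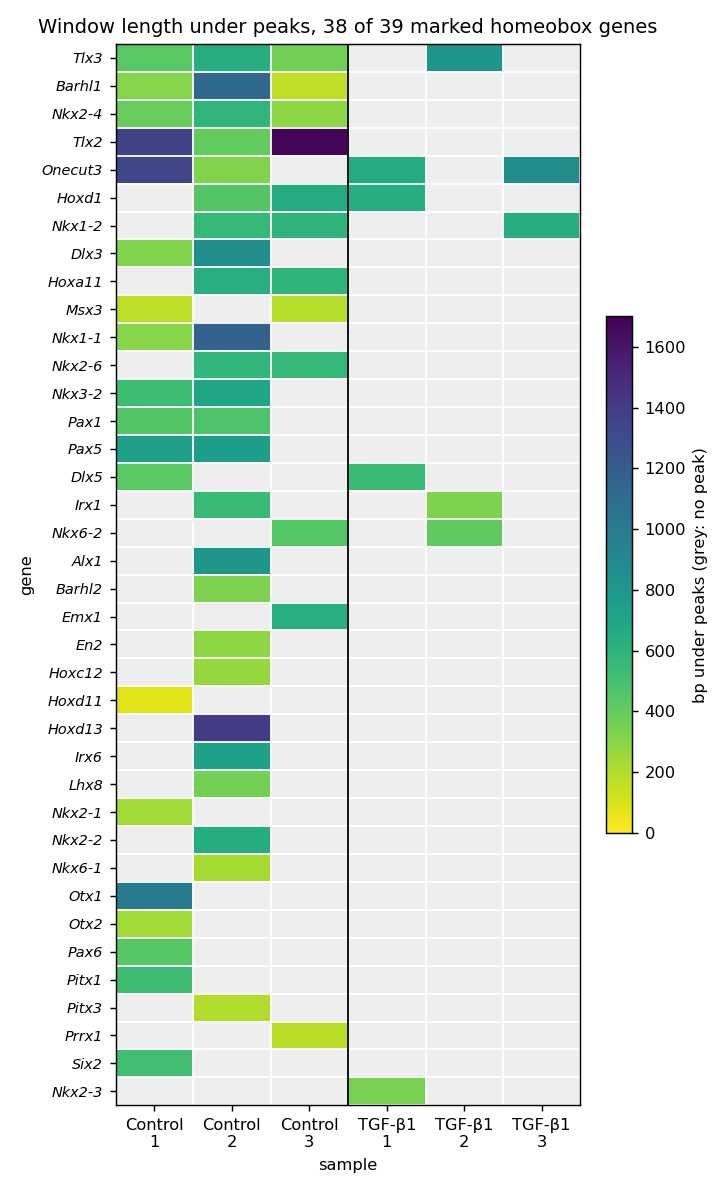
Window length under peaks, in bp by the colour scale, for 38 of the 39 homeobox genes marked in at least 1 sample (rows) in the 6 samples (columns). Grey cells have no peak. The 3 TGF-β1 columns hold 4, 3 and 2 coloured cells, far fewer than any Control column.

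The 4 genes with a peak in every Control sample and none with TGF-β1 included Tlx2, Barhl1 and Nkx2-4. Peaks covered 1369, 403 and 1672 bp of the Tlx2 window (gene at chr6:83018311-83020287, minus strand) in the Control samples and 0 bp in the 3 TGF-β1 samples. This was the greatest difference of means on any homeobox gene, 1148 ± 663 bp against 0 bp. The peaks of replicates 1 and 3 ran from the upstream region over the start site into the coding sequence, with fold enrichments over the local background of 3.21 and 3.58, while that of replicate 2 lay wholly upstream.

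Barhl1 (chr2:28763199-28772188, minus strand) carried 312, 1126 and 161 bp in the Control samples, all of it upstream of the gene. The peak of replicate 2 had the highest fold enrichment of the 3, 3.31, and it spanned both others, which did not overlap each other. Nkx2-4 (chr2:146909052-146911181, minus strand) carried 395, 583 and 289 bp over coding sequence and intron, with fold enrichments of 1.44, 1.45 and 2.76. None of these 4 genes rested on 1 library, since each had a peak in all 3 Control samples, but the count of genes with this pattern did depend on which libraries were required. Without Control replicate 3, which had the fewest Control peaks, 9 homeobox genes met it, and without Control replicate 1, 6 did. With 797 peaks per sample 0 genes met it, whether the most significant or the longest peaks were kept. Leaving out a Control sample makes the rule looser for every gene. The share of all genes that met it in these settings is not given, so these counts have no background.

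Tlx3, which sets the fate of excitatory neurons in the spinal cord, was the 1 other gene with a peak in all 3 Control samples. Its window (gene at chr11:33100752-33103588, minus strand) carried 438, 639 and 360 bp in the Control samples and 0, 805 and 0 bp in the TGF-β1 samples. The peaks of Control replicates 1 and 2 lay on the start site and that of replicate 3 upstream. The TGF-β1 peak lay over coding sequence and intron and overlapped only the edge of the peak of Control replicate 2. Its pileup was the highest of the 4, 35.6 extended tags against 7.71 to 15.4, but its fold enrichment was the lowest, 1.05 against 1.65 to 2.18. Tlx1, the third member of this family, was marked in no sample.

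Onecut3, a cut-homeodomain factor of the nervous system, was the only homeobox gene with a peak in more than 1 TGF-β1 sample. Its window (gene at chr10:79957651-79980003, plus strand) carried 1336, 319 and 0 bp in the Control samples and 651, 0 and 863 bp in the TGF-β1 samples. The groups overlapped. The 5 peaks fell into 4 separate stretches of the gene, with midpoints between 7663 and 20051 bp from its 5′ end, and no Control peak overlapped a TGF-β1 peak. Onecut1 and Onecut2 were not marked.

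By mean covered length, the 5 genes with the greatest differences also included Pax5 and Nkx1-1. Pax5, the B cell factor, carried 742, 753 and 0 bp in the Control samples and none with TGF-β1. The 3 peaks behind these values lay apart from each other in a window of 182 kb. Nkx1-1 carried 303, 1163 and 0 bp in the Control samples and none with TGF-β1, with both peaks within 2 kb of the start site. Only 2 homeobox genes had a higher mean with TGF-β1. Nkx2-3, a factor of the spleen and gut, had 350 bp across its start site in TGF-β1 replicate 1 and nothing elsewhere. Dlx5 had 434 bp in Control replicate 1 and 546 bp in TGF-β1 replicate 1, and these nearly coincident intron peaks had the largest −log10 q of any homeobox gene in their groups, 13.3 and 5.76. Each of these differences rested on 1 TGF-β1 library.

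The marked genes of each family are described here without a test. For comparison, 10.9% of all genes and 32.0% of the 122 homeobox genes were marked in any sample. Many families are too small for a low count to be told from these shares. The Nkx family, with members that pattern the thyroid, ventral neural tube, gut and heart, had 11 of 14 genes marked in at least 1 sample, 10 of them in Control samples and 3 with TGF-β1. It gave 5, 8 and 5 marked genes in the Control samples and 1 in each TGF-β1 sample. Both Barhl and both Otx genes were marked, in Control samples only, as were 2 of the 3 Pitx genes. Tlx had 2 of 3 genes marked, Pax 3 of 9, Dlx 2 of 6 and Irx 2 of 6. The Lhx family of LIM homeodomain factors had 1 of 8, and the family of Six2 had 1 of 6. No peak touched either Barx gene, either Gsx gene, either Vax gene or any of the 3 Meis genes, TALE-class cofactors of the Hox proteins.

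The lists by role differ in size and were not tested against each other, and 10.9% of all genes were marked in any sample. Of 34 homeobox genes of the nervous system, 16 were marked, all 16 in Control samples and 3 with TGF-β1. They gave 9, 10 and 5 marked genes in the Control samples and 1, 2 and 1 with TGF-β1. Of 17 genes of limb, skeleton and mesenchyme, 5 were marked in Control samples (Alx1, Dlx3, Dlx5, Pitx1 and Prrx1) and 1 with TGF-β1 (Dlx5). Of 20 genes in neither of these lists, the kidney list nor the Hox clusters, 11 were marked, 10 in Control samples and 2 with TGF-β1.

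Of 18 genes of kidney development, 4 were marked in any sample, all 4 in Control samples and 1 also with TGF-β1. For comparison, 32.0% of the 122 homeobox genes and 10.9% of all genes were marked in any sample. Irx1, active in nephron segments, had 556 bp in Control replicate 2 and 326 bp in TGF-β1 replicate 2, both over coding sequence and sharing 55 bp. Six2, which maintains nephron progenitors, had 520 bp in Control replicate 1 only. Hoxa11 and Hoxd11, partners in growth of the ureteric bud and nephrons, are given with their clusters. No peak touched Pax2, Pax8, Lhx1 or Emx2, further regulators of the early kidney.

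Prrx1 and Pitx1 appear among the genes with altered H3K27me3 that the study selected on these samples, so their direction is not independent evidence. Prrx1, a factor of limb and other mesenchyme (chr1:165175247-165243841, minus strand), had a single peak of 174 bp over exon sequence in Control replicate 3, with a fold enrichment of 1.21. Pitx1, a factor of hindlimb identity and the pituitary (chr13:55926415-55937553, minus strand), had a single peak of 530 bp in Control replicate 1, 9792 bp into the gene, with a fold enrichment of 1.35. Each thus rested on 1 Control library, and the other 5 samples had no peak.

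A smaller share of the Hox genes than of the other homeobox genes was marked, with no test of this difference. Of the 39 Hox genes, 5 were marked in any sample (12.8%), against 34 of the 83 others (41.0%). The share of Hox genes was thus near that of all genes, 10.9%. A CpG-rich promoter was found in 35.9% of the Hox genes and 61.4% of the others. The Control samples had 1, 4 and 2 marked Hox genes and the TGF-β1 samples 1, 0 and 0, with overlap between the groups (exact permutation p = 0.2). The other homeobox genes gave 19, 22 and 11 marked genes in the Control samples and 3, 3 and 2 with TGF-β1, with means of 17.3 ± 5.69 and 2.67 ± 0.577 (SD, n = 3 each, 6.5-fold, exact permutation p = 0.1). Hox genes made up 5, 15.4 and 15.4% of the marked homeobox genes in the Control samples and 25, 0 and 0% with TGF-β1, a difference that did not exceed the spread (exact permutation p = 0.8) and whose sign turned without TGF-β1 replicate 2 or 3.

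As stretches, from 2 kb before the first Hox gene to 2 kb after the last, the 4 clusters spanned 508 kb, of which peaks covered 1621, 4640 and 2709 bp in the Control samples and 1312, 0 and 172 bp in the TGF-β1 samples. The groups did not overlap, with means of 2990 ± 1529 and 495 ± 713 bp (SD, n = 3 each, 6.04-fold, exact permutation p = 0.1). The fold was held down by TGF-β1 replicate 1, without which the TGF-β1 mean was 86 bp and the fold 34.8. Leaving out any other sample gave 4.03 to 7.43. At most 0.913% of the 4 stretches was under peaks in any sample. Of all autosomes, peaks covered 0.0378 to 0.0597% in the Control samples and 0.0164 to 0.0274% in the TGF-β1 samples, also without overlap. Of the 16 posterior genes (paralogue groups 9 to 13) 4 were marked. Of the 11 central genes (5 to 8) 0 were marked, and of the 12 anterior genes (1 to 4) 1 was. This split was not tested, and 10.9% of all genes were marked in any sample. Among the posterior genes, Hoxc12, Hoxd11 and Hoxd13 were each marked in 1 Control sample only.

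HoxA (chr6:52103366-52212874, 11 genes) carried 1290, 2520 and 2053 bp in the Control samples and 669, 0 and 172 bp in the TGF-β1 samples. The groups did not overlap, as over all autosomes, with means of 1954 ± 621 and 280 ± 347 bp (SD, n = 3 each, 6.97-fold, exact permutation p = 0.1, 0.4 after Benjamini-Hochberg adjustment over the 4 clusters). The fold depended on TGF-β1 replicate 1, without which it was 22.7, and without TGF-β1 replicate 2 it was 4.65. Most of this length came from the intergenic peak between Hoxa11 and Hoxa13, about 7 kb from the start sites of both. That peak was 1290, 1883 and 1463 bp long in the Control samples and 669, 0 and 172 bp in the TGF-β1 samples. Its fold enrichment was 3.73, 1.56 and 2.26 in the Control samples and 1.87 and 1.97 in the 2 TGF-β1 samples that had it, so the enrichments overlapped where the lengths did not. It lies outside every gene window and entered none of the gene counts above.

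Within HoxA genes, only Hoxa11 was marked, with 637 bp across its start site in Control replicate 2 and 590 bp over coding sequence and intron in Control replicate 3. These peaks did not overlap each other, and the second had a fold enrichment of 3.14 and a −log10 q of 5.35. HoxD (chr2:74504367-74605200, 9 genes) carried 331, 1853 and 656 bp in the Control samples and 643, 0 and 0 bp in the TGF-β1 samples. The groups overlapped, with means of 947 ± 802 and 214 ± 371 bp (SD, n = 3 each, exact permutation p = 0.2, 0.4 adjusted over the 4 clusters), and the difference turned to a higher TGF-β1 mean, 214 against 152 bp, when each sample was cut to its 797 most significant peaks.

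The marked HoxD genes lay toward either end of the cluster. Hoxd13, which shapes the digits, had 1396 bp across its start site in Control replicate 2 only. Hoxd11 had 81 bp at its 3′ end in Control replicate 1 only. Hoxd1 had 457 and 656 bp in Control replicates 2 and 3 and 643 bp in TGF-β1 replicate 1, with fold enrichments of 1.53, 1.74 and 2.24. The other 6 HoxD genes were marked in no sample. HoxC (chr15:102749534-102869274, 9 genes) carried 1 peak in all, 267 bp over coding sequence of Hoxc12 in Control replicate 2. HoxB (chr11:96053630-96231570, 10 genes) carried none in any of the 6 samples. A peak that was not called does not show that the mark was absent, since only regions that passed the caller's threshold are listed.

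**Figure D3:**
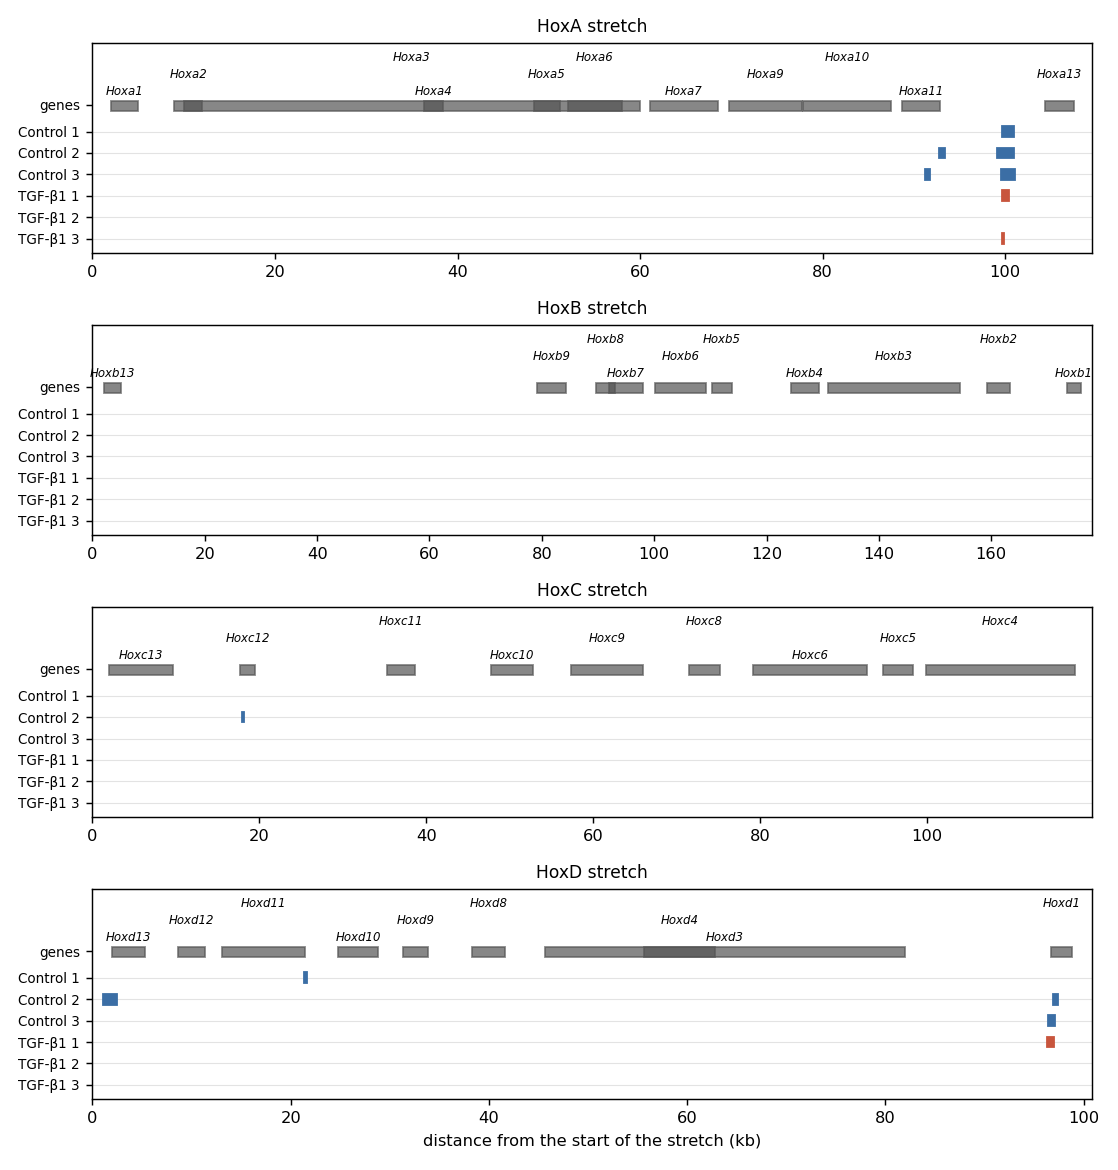
The 4 Hox stretches to scale, in kb from the start of each stretch. Grey boxes are gene bodies with their names, and below them each sample's peaks are drawn as blue (Control) or red (TGF-β1) blocks. The block near 100 kb in HoxA recurs in 5 of the 6 samples, HoxB is empty, and HoxC holds 1 peak.

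The peaks on homeobox genes were of low enrichment. The 72 peaks were 161 to 1672 bp long, with a median of 515 bp, and their fold enrichment ran from 1.05 to 3.58 with a median of 1.82. Of the 72, 51 had a −log10 q under 1, and 3 reached 5. A −log10 q under 1 is a q above 0.1, the headers' cutoff for weak regions, yet all 72 peaks were listed. The deposited q of a peak therefore does not tell whether it passed that cutoff. Median widths were 434, 571 and 463 bp in the Control samples and 594.5, 417 and 750.5 bp in the TGF-β1 samples, which had only 4, 3 and 2 peaks. The median widths of all other peaks were 343 to 465 bp, and their median fold enrichments 1.73 to 1.90. The widths on homeobox genes overlapped between the groups (exact permutation p = 0.5). Median fold enrichments were 1.68, 1.80 and 2.12 in the Control samples and 2.26, 1.36 and 2.17 with TGF-β1 (exact permutation p = 0.8). The groups thus differed in how many homeobox genes had a called peak. A difference in the enrichment of the called peaks was not detectable with these few peaks. Only peaks past the caller's threshold were compared, so these medians cannot tell fewer marked genes from a weaker signal.

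Most peaks lay near start sites. Of the 72 peaks, 22 lay across an annotated start site and 52 reached within 2 kb of one. Every window holds a start site, and the median window was 8.14 kb. The part of the choice of window in this position was not tested. Coding sequence was touched by 43 peaks, exon sequence outside the coding part by 36, introns by 33 and the 2 kb upstream by 26. Within 2 kb of a start site came 14 of 23, 19 of 26 and 14 of 14 peaks in the Control samples and 3 of 4, 2 of 3 and 0 of 2 in the TGF-β1 samples. The means of these shares, 78.0 ± 20.0 and 47.2 ± 41.1% (SD, n = 3 each), did not differ beyond the spread (exact permutation p = 0.5). The low mean with TGF-β1 rested on replicate 3, without which it was 70.8%.

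**Figure D4:**
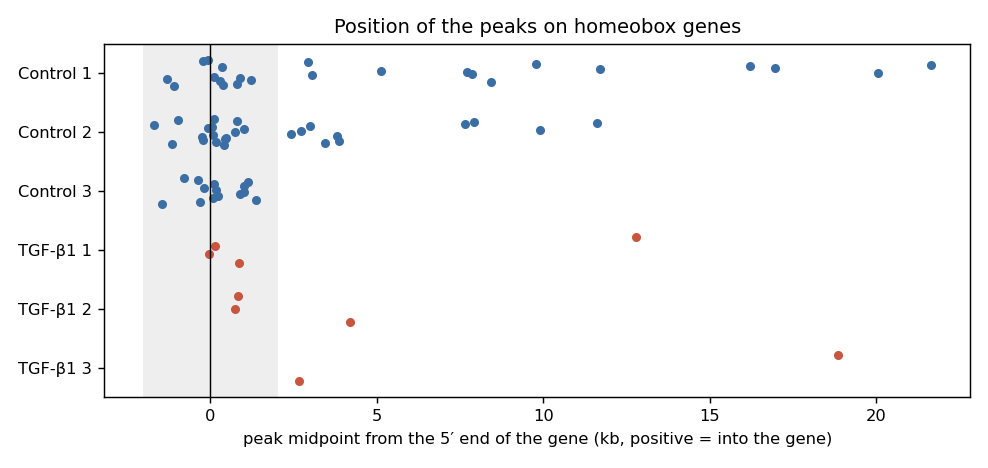
Midpoints of the 72 peaks on homeobox genes, in kb from the 5′ end of the gene and positive into the gene, by sample. Each point is 1 peak, with vertical scatter only to separate points, and the grey band marks 2 kb on either side. All 14 peaks of Control replicate 3 lie in the band, and the TGF-β1 samples have 4, 3 and 2 points.

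Where a gene was marked in several samples, the peaks mostly overlapped. Of the 39 marked homeobox genes, 20 were marked in 1 sample only. Of the 19 marked in at least 2 samples, 16 had peaks that overlapped between at least 2 samples, and in 13 the peaks of all marked samples joined into 1 stretch. Of the 7 genes marked in both groups, 5 had a Control peak that overlapped a TGF-β1 peak (Dlx5, Hoxd1, Irx1, Nkx1-2 and Tlx3). Nkx1-2, a factor of axial progenitors, had 567 and 595 bp in Control replicates 2 and 3 and 638 bp in TGF-β1 replicate 3. The peaks of Control replicate 2 and TGF-β1 replicate 3 shared 554 bp at the 3′ part of the gene, while that of Control replicate 3 lay in an intron.

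Last, 57 homeobox genes that the family names above do not cover were counted the same way. The Control samples had 8, 14 and 10 of them marked and the TGF-β1 samples 5, 1 and 5, again without overlap. The means were 10.7 ± 3.06 and 3.67 ± 2.31 genes (SD, n = 3 each, 2.91-fold, exact permutation p = 0.1). For all 21205 autosomal protein-coding genes outside the 122, which include these 57, the groups were also without overlap, and the means were 2.30-fold apart. The 122 genes made up 71.4, 65.0 and 56.5% of all marked homeobox genes in the Control samples and 44.4, 75.0 and 28.6% with TGF-β1, with overlap (exact permutation p = 0.4). A difference between the 122 genes and these 57 in their response was therefore not shown.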

How the data were processed

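H3K27me3 ChIP-seq peak lists of 6 samples of mouse primary mesangial cells were analysed, 3 Control and 3 TGF-β1, grouped by the treatment label. According to the methods of the study, reads were aligned to mm9 with BWA, uniquely mapped reads were kept and duplicates were counted once. Per the file headers, the authors called broad peaks in each sample with MACS 2.1.0.20150731, without a control library, at q 0.01 for strong and 0.1 for weak regions, with 49 bp tags and a local background window of 10000 bp. The methods also mention a call on merged replicates, which was not used here. The deposited pileup is a coverage signal and is unscaled. Fold enrichment, as deposited, is a ratio to that library's own local background. Significance was deposited as −log10 of p and of q. With no input library, regions that attract reads for other reasons were not subtracted, and only regions past the caller's threshold are listed. The protocol in the labels speaks of methylated DNA immunoprecipitation and the headers of gDNA, whereas titles, antibody and study name H3K27me3, which is followed here. The labels do not say whether samples of a group came from separate cultures, so p-values measure only the spread between these samples.

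Per the headers, libraries held 24753483 to 25635595 tags, of which 19721434 to 22307716 were left once duplicates were dropped. No counting intervals are given, since the lists hold no tag counts per peak.

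Genes and start sites came from GENCODE M1 on mm9, and sequences from the mm9 genome. The 122 homeobox genes were chosen by symbol from 21327 genes. Symbols with overlapping entries in the annotation were joined, 126 entries for the 122 genes. A window was the gene body plus 2 kb upstream, and an overlap of 1 bp counted. Counts, covered length and shares per sample were compared with 2-sided exact permutation tests of the 6 values (smallest p 0.1), with Benjamini-Hochberg adjustment over 10 tests. The DESeq comparison of the study needs read counts per region and was not run. The counting was tested on simulated peak lists with planted overlaps.

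The genes named were those with a peak in all 3 Control samples, those with a peak in at least 2 TGF-β1 samples, the 5 with the greatest lower and the 5 with the greatest higher mean covered length (only 2 were higher), the Hox genes by cluster, Prrx1 and Pitx1, and marked genes of the kidney list; Nkx1-2 and the genes named by family or list were added after their values were seen. Results for a few of these genes are not reported here. The homeobox genes and all lists were chosen with earlier results of these data known. Alternatives were stricter peak thresholds, 797 autosomal peaks per sample, other overlaps and windows, a replicate block, and leaving out each sample. All values were computed with scipy 1.17.1, pandas 2.3.3 and numpy 2.4.6 in Python 3.11.15.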

Additional observations from a re-analysis of the deposited data

How the results depend on the processing

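The number and covered length of marked homeobox genes and their share of marked genes kept their direction in every setting except those that left few or no peaks. Leaving out 1 sample, the difference (TGF-β1 minus Control) ranged from -20 to -13.5 genes, from -11192 to -6965 bp and from -1.15 to -0.808 percentage points of marked genes. At a fold enrichment of at least 4, no homeobox gene was marked and all 3 differences were 0. At a −log10 q of at least 5 the share turned to 0.0946 percentage points.

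For the share of Hox genes among marked homeobox genes, leaving out 1 sample gave -11.9 to 0.577 percentage points, and the sign turned without TGF-β1 replicate 2 or 3 (0.577 each). Median peak width differed by 16.4 to 183 bp without 1 sample and by -279 bp with the 797 longest peaks, and the share of peaks near start sites by -44.6 to -7.15 points. These 3 measures gave no value at the stricter thresholds, where samples had no such peak, nor in windows around start sites, which were used for the other measures.

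HoxA differed by -2006 to -1391 bp without 1 sample and by 0 at a fold of at least 4. HoxC differed by -133.5 to 0 bp without 1 sample, and by 0 at either threshold and at equal peak numbers. HoxD differed by -1040 to -279 bp without 1 sample, by 0 at either threshold and by 62 bp with the 797 most significant peaks. HoxB was 0 throughout. The 4 genes marked in all Control and no TGF-β1 samples became 0 at either threshold and at equal peak numbers, 2 with gene bodies only, and 4 to 9 without 1 sample. These counts have no background, since the share of all genes in these settings is not given, and leaving out a sample loosens the rule.

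Same-numbered samples did not deviate together (correlations of 0.0057, -0.00069 and 0.013 over 2333 genes). Differently numbered ones gave -0.0129 to 0.00667. Correlations this weak cannot decide whether the numbers pair the samples. The replicate block left the differences as they were, -16.7 genes and -9225 bp among them, with exact sign-flip p = 0.25, the smallest that 3 pairs can give. The causes of these changes were not tested, nor was the effect of depth on the calls. The removal of samples for the 4 Hox stretches together was chosen after seeing the data.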

Other observations

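Genes outside the 122 gave these values by the same count. Of 17 genes of the Polycomb machinery, Jarid2, a PRC2 cofactor, was marked in all 6 samples and Cbx8, a PRC1 reader of the mark, in 1 sample of each group. Of 14 widely expressed genes, 0 were marked in any sample. Among homeobox genes outside the family names, Dbx1, a neural tube factor, was marked in all 6 samples, Lmx1a, Pou3f1 and Vsx1 in all 3 Control and no TGF-β1 samples, and Dbx2 in 1 Control and 2 TGF-β1 samples. Of 6 podocyte markers, 3 were marked in Control samples and 1 in a TGF-β1 sample, and of 7 tubule markers Slc12a3 was marked in 1 Control sample.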
